A study of Chrysemys picta and Apalone spinifera with 20 samples.

Results

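NR6A1, ONECUT2, POU2F1 and USF3 are 4 genes for transcription factors that were followed by their entries (XM_005279455, XM_005296830, XM_005283689 and XM_005292720) through embryos of 2 turtles. They were 4 of 13940 entries counted in the painted turtle *Chrysemys picta* and 4 of 12678 in the softshell *Apalone spinifera*. They were grouped as early embryo factors with a lower level in warm eggs, so they were chosen by the measured difference between 31 °C and 26 °C, which is given here as a description with no test. That label fitted some libraries only. All 4 genes were lower at 31 °C in *Chrysemys* trunks of stage 9. All 4 had higher values at 31 °C at stage 15, where only USF3 had a counting interval that excluded a ratio of 1. No such pattern appeared in *Apalone*.

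Total RNA was sequenced from 20 libraries, 1 for each species, temperature (26 °C or 31 °C) and stage (9, 12, 15, 19 or 22), with no further treatment. Sex depends on egg temperature in *Chrysemys*, where 26 °C yields males and 31 °C females, and on sex chromosomes in *Apalone*, whose embryos were not sexed. Each library was a single pool of embryos, fewer of them in *Apalone*, so embryos within a group could not be compared. Embryos were matched by stage and not by age, and the warm eggs of a stage had been incubated for fewer days. Tissue changed with stage. By the study's methods stage 9 gave trunks, stages 12 and 15 the joined adrenal, kidney and gonad (the complex), and stages 19 and 22 the gonad alone.

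NR6A1, also called germ cell nuclear factor, is a nuclear receptor with no known ligand. In the mouse it represses pluripotency genes as the embryo leaves its earliest state, and it is needed for normal trunk formation. ONECUT2 is a homeobox protein with a cut domain that acts in liver, pancreas and nerve cells of the mouse. POU2F1, or OCT1, binds the octamer motif and is present in most cell types. USF3 carries the basic helix-loop-helix fold of the upstream stimulatory factors, which bind E-box motifs.

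Libraries held 11610098 to 24606646 counts in *Chrysemys* and 5544730 to 9501484 in *Apalone*, and each read pair adds 2 to a count. A scaled count is a count divided by a factor that sets the upper quartile of all libraries of a species equal. Intervals are exact 95% intervals on read pairs and cover counting error only, not the spread between pools. Transcript lengths were not used, so levels are compared between libraries and not between genes. Markers of gonadal somatic cells (10 of 14 listed genes counted) summed to 10684 and 46916 scaled counts in the 26 °C *Chrysemys* gonads of stages 19 and 22, against 3085 and 2012.4 at 31 °C. Skeletal muscle markers (8 of 14 listed) summed to 2182 and 2438 against 23641 and 26531 in the same gonads. The Sertoli cell genes AMH (29836) and CLDN11 (10472) made up most of the stage 22 sum at 26 °C. At 31 °C they had 25.1 and 519. The ovarian factor FOXL2 went the other way at stage 22, from 7.52 at 26 °C to 105 at 31 °C, as did DHH (165 and 232). No marker of either list was at 0 in these 4 libraries. Kidney nephron markers (4 of 13 listed) were also high in these gonads, with sums of 24857 and 26698 at 26 °C and 17309 and 32033 at 31 °C. In the *Chrysemys* complexes of stages 12 and 15 they summed to 1912 and 3674 at 26 °C and to 2029 and 7378 at 31 °C.

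NR6A1 had its highest *Chrysemys* level in the 26 °C trunk of stage 9. Its scaled counts at 26 °C, from stage 9 to stage 22, were 770.2, 32.5, 9.03, 25.2 and 35.1. The 31 °C libraries held 126, 56.6, 21.1, 17.2 and 10.5 in the same order of stages. The cool trunk thus stood far above the other 9 libraries, followed by the warm trunk. Among the 9 pairs of neighbours in the order of levels, intervals were apart only for the first 2 steps, from 770.2 to 126 and from 126 to 56.6.

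In *Apalone* both trunks were high for NR6A1, with the warm one on top. The scaled counts at 26 °C were 335, 36.9, 14.2, 14.5 and 6.98 over the 5 stages. Those at 31 °C were 478, 24.5, 8.12, 19.5 and 20.4. Again only the first 2 steps in the order had separate intervals, and the 8 libraries after stage 9 lay between 6.98 and 36.9. The highest level was 85.3 times the lowest in *Chrysemys* and 68.4 times in *Apalone*.

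ONECUT2 was the gene with the fewest reads. In *Chrysemys* its scaled counts at 26 °C were 135, 44.1, 6.02, 12.0 and 7.52 over stages 9 to 22. At 31 °C they were 25.7, 53.8, 26.4, 0 and 0. Only the cool trunk was apart from its neighbour, and the gene was not detected in either warm gonad library. For a fold, a count of 0 was set at a floor of 6 counts, which is 3 read pairs.

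The *Apalone* levels of ONECUT2 differed little between the temperatures until stage 15. They were 48.2, 32.3, 25.6, 24.2 and 2.33 scaled counts at 26 °C over the 5 stages. At 31 °C they were 48.1, 34.3, 16.2, 0 and 1.85. The lowest 3 libraries were both gonads of stage 22 and the warm gonad of stage 19, and no 2 neighbours in the order had separate intervals.

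POU2F1 varied less over the libraries. In *Chrysemys* the scaled counts at 26 °C were 243, 41.8, 24.1, 86.4 and 138, lowest at stage 15. At 31 °C they were 58.2, 94.8, 55.5, 91.5 and 39.7. The cool series therefore dipped at stages 12 and 15, while the warm one had its highest values at stages 12 and 19. The highest level was 10.1 times the lowest.

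The *Apalone* series of POU2F1 had the same dip at both temperatures. Scaled counts at 26 °C were 359, 223, 96.8, 184 and 130.3 over the 5 stages. The warm libraries held 401, 220.2, 116, 296 and 208. Stage 9 was highest and stage 15 lowest in each series, with a 4.14-fold range over all 10 libraries.

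USF3 followed a course like that of POU2F1. In *Chrysemys* at 26 °C its scaled counts were 314, 83.6, 36.1, 202 and 288. At 31 °C they were 70.4, 99.0, 122, 154 and 83.7. The 3 highest libraries were all cool (stages 9, 22 and 19), and the only separate neighbours were 288 and 202. In *Apalone* the 26 °C values were 214, 188, 99.7, 215 and 193, and those at 31 °C 259.8, 186, 129.9, 186 and 174. No neighbours in that order were separate, and the highest level was 2.61 times the lowest.

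**Figure D1:**
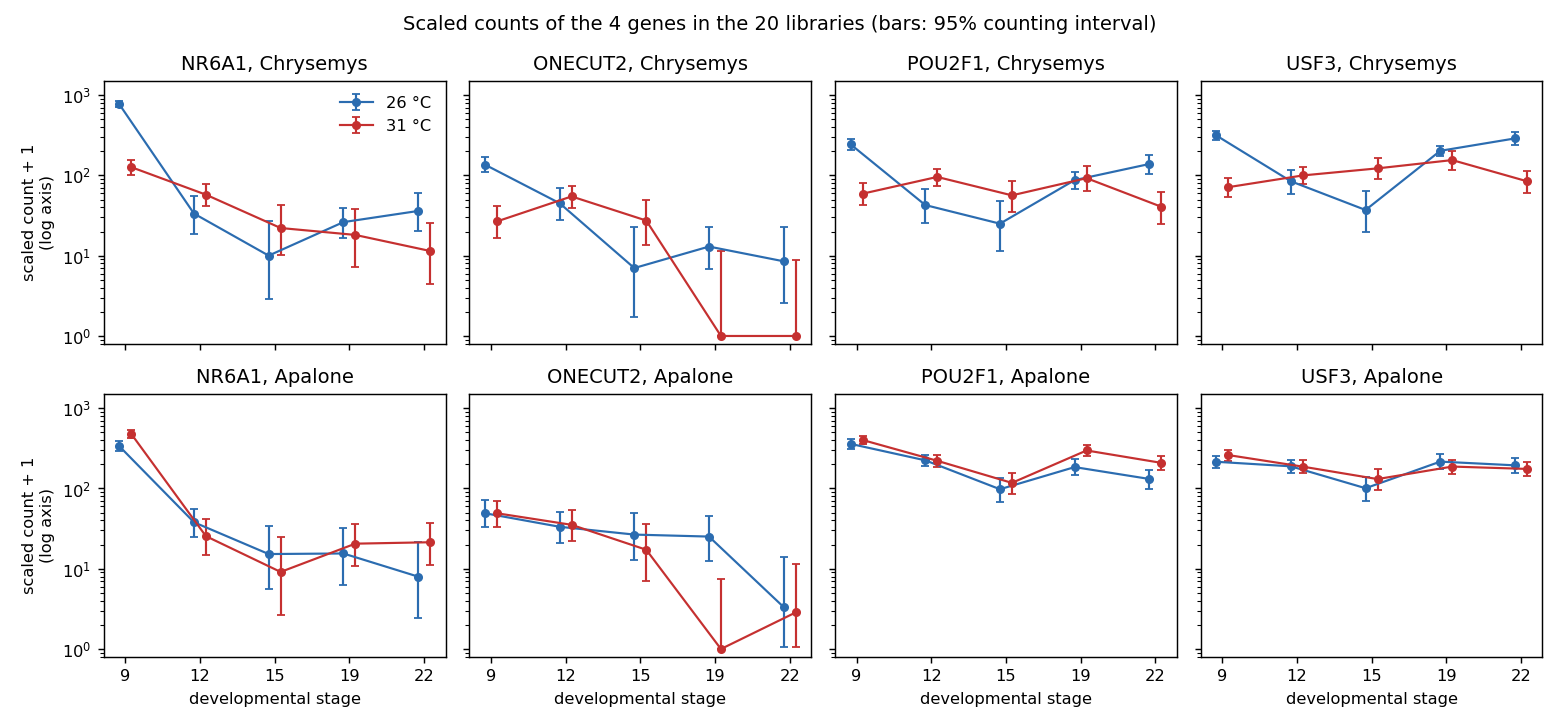
Scaled count plus 1 (log axis) of NR6A1, ONECUT2, POU2F1 and USF3 at each developmental stage, with *Chrysemys* on top and *Apalone* below, the cool eggs in blue and the warm eggs in red; each point is 1 library and bars are 95% counting intervals. The 26 °C *Chrysemys* trunk of stage 9 is the highest point of all 4 top panels, with 770.2 for NR6A1 against 126 at 31 °C.

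The warm and cool libraries of each stage were next set side by side, as log2 ratios of 31 °C over 26 °C on scaled counts plus 1. At stage 9 in *Chrysemys* the log2 ratio was -2.60 for NR6A1, -2.35 for ONECUT2, -2.04 for POU2F1 and -2.14 for USF3. NR6A1 was 6.12-fold lower in the warm trunk (interval 4.89 to 7.72) and ONECUT2 5.26-fold lower (3.17 to 9.17). POU2F1 was 4.18-fold lower (2.96 to 6.01) and USF3 4.46-fold lower (3.27 to 6.18). All 4 genes were thus at least 1.5-fold lower, as were 14.1% of the 12355 genes with a mean scaled count of 10 or more.

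The direction was the opposite in the *Chrysemys* complexes. At stage 12 POU2F1 was 2.27-fold higher at 31 °C (interval 1.33 to 4.06) and NR6A1 1.74-fold higher (0.928 to 3.47). ONECUT2 and USF3 were near even there, at 1.22-fold (0.686 to 2.24) and 1.19-fold (0.782 to 1.82). Hence 2 of 4 were at least 1.5-fold higher at stage 12, beside 9.46% of all genes, and none was lower, beside 8.87%.

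At stage 15 all 4 genes were at least 1.5-fold higher at 31 °C, beside 21.9% of all genes. USF3 was 3.37-fold higher (1.75 to 6.98), the only one of the 4 whose interval excluded 1. NR6A1 was 2.34-fold higher (0.562 to 13.7) and POU2F1 2.30-fold higher (0.981 to 6.02). ONECUT2 was 4.39-fold higher (0.936 to 41.2), from 10 read pairs against 2, so these differences were mostly not detectable at this depth.

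In the *Chrysemys* gonads of stage 19 no gene with reads at both temperatures passed 1.5-fold, beside 17.0% of all genes lower and 22.6% higher. The log2 ratio was -0.53 for NR6A1, 0.08 for POU2F1 and -0.38 for USF3. ONECUT2 had 10 read pairs in the cool gonad and 0 in the warm one. With the warm value set at 3 read pairs it was 1.40-fold lower there, which leaves out the counting error of the 10. At stage 22 the warm gonad was lower again, by 3.35-fold for NR6A1 (1.14 to 11.9), 3.47-fold for POU2F1 (2.03 to 6.19) and 3.44-fold for USF3 (2.38 to 5.07). These 3 were called beside 15.7% of all genes, while ONECUT2, with 3 read pairs against 0, allowed no fold. The gonadal marker sum was lower and the muscle sum higher at 31 °C at stage 22, and likewise at stage 19, where none of these 3 genes passed 1.5-fold. Of the 10 gonadal markers, 6 were at least 1.5-fold lower and 2 higher at stage 19. At stage 22 the counts were 8 and 1. The part of these markers in the result was not tested. Fewer cells of a type and less RNA per cell cannot be told apart in such pools.

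In *Apalone* the warm and cool libraries differed less. At stage 9 no gene passed 1.5-fold in either direction (12.3% of 9946 genes were lower and 6.77% higher), and NR6A1 was 1.43-fold higher at 31 °C (1.18 to 1.72). At stage 12 none passed on the log2 scale (5.59% lower, 12.5% higher), with NR6A1 at -0.57 and the other 3 between -0.02 and 0.08. At stage 15 NR6A1 (log2 ratio -0.74) and ONECUT2 (-0.63) were lower, as were 15.9% of genes, on 9 read pairs or fewer per library, and none was higher, beside 18.1%.

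In *Apalone* gonads POU2F1 was higher at 31 °C at both stages, a sign shared with *Chrysemys* at stage 19 (log2 ratio 0.08) and opposite to it at stage 22 (-1.77). It was 1.61-fold higher in the warm library at stage 19 (1.22 to 2.15), where 17.6% of genes were higher. At stage 22 it was 1.59-fold higher (1.15 to 2.24) and NR6A1 2.92-fold higher (0.771 to 16.3), beside 18.6% of genes. ONECUT2 had 0 read pairs in the warm gonad of stage 19 against 10 in the cool one. With the warm value set at 3 read pairs it was 4.54-fold lower there, again without the counting error of the 10. USF3 stayed between -0.20 and 0.38 on the log2 scale at all 5 *Apalone* stages.

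**Figure D2:**
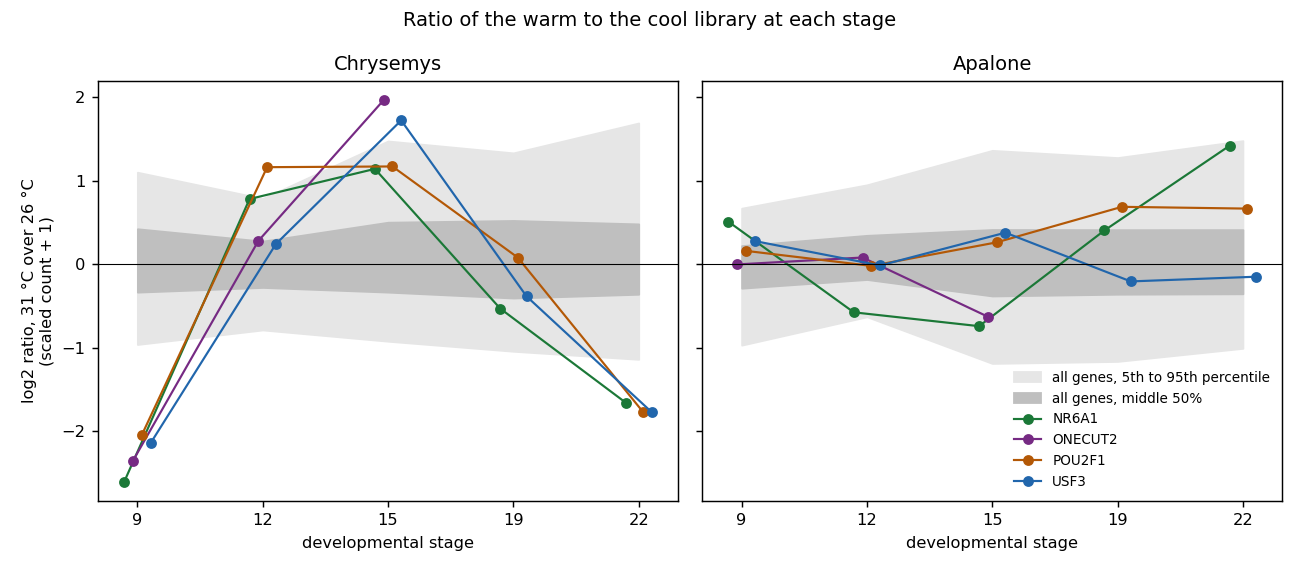
Log2 ratio of the 31 °C over the 26 °C library (scaled count plus 1) by stage in *Chrysemys* (left) and *Apalone* (right), 1 line per gene, with the middle 50% and the 5th to 95th percentile of all genes in grey. In *Chrysemys* the lines start at -2.60 to -2.04, reach 1.14 to 1.97 at stage 15 and end at -1.77 to -1.65; ONECUT2 is not drawn at stages 19 and 22, where a library held 0 reads or both held 3 read pairs or fewer.

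Averaged over stages, the sign changes in *Chrysemys* left small means with a wide spread. The mean log2 ratio was -0.57 ± 1.59 (SD, n = 5 stages) for NR6A1, -0.28 ± 1.55 for POU2F1 and -0.47 ± 1.57 for USF3. For ONECUT2 it was -0.03 ± 2.18 over the 3 stages with reads at both temperatures, which leaves out stages 19 and 22, where the warm library held 0 reads. The fitted log2 difference over all 5 stages, with stage as a block, was -1.05 ± 0.81 (SE) for ONECUT2. Each mean was smaller than its SD. In *Apalone* the means were 0.20 ± 0.88 for NR6A1, 0.35 ± 0.31 for POU2F1 and 0.06 ± 0.26 for USF3 (n = 5 stages), and -0.18 ± 0.39 for ONECUT2 (n = 3). That ONECUT2 mean also leaves out stage 19, with 10 read pairs at 26 °C and 0 at 31 °C, and stage 22, with 1 in each. Its fitted log2 difference over all 5 *Apalone* stages was -0.77 ± 0.66 (SE).

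The course of the *Chrysemys* ratios was also set beside that of all genes, as a description. NR6A1, POU2F1 and USF3 were at least 1.5-fold lower at stages 9 and 22 and at least 1.5-fold higher at stage 15, and so was ONECUT2 if its 3 read pairs against 0 at stage 22 are counted on the log2 scale. Of 12355 genes, 292 had this course (2.36%), as did 31 of 9946 in *Apalone* (0.312%), none of them among the 4. This description was chosen after the ratios were seen and uses the contrast that grouped the genes, so nothing is read from it. None of the 4 was lower at 31 °C at all 5 stages in either species, beside 2.36% of *Chrysemys* and 6.58% of *Apalone* genes.

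The make-up of the *Chrysemys* libraries moved over the same stages. The share of counts in 47 ribosomal protein genes was 4.96, 12.3, 15.6, 6.66 and 7.25% at 26 °C over stages 9 to 22. At 31 °C it was 8.83, 10.2, 14.4, 9.51 and 10.7%. It was thus higher in the warm library at stages 9, 19 and 22 and lower at 12 and 15. That was the reverse of the sign of USF3 and NR6A1 at every stage, but not of POU2F1 at stage 19 (log2 ratio 0.08). In *Apalone* the share was lower in the warm library at stages 9, 15, 19 and 22 and higher at stage 12. NR6A1 had the reverse sign at stages 9, 12, 19 and 22 (0.51, -0.57, 0.41 and 1.42). At stage 15 NR6A1 was lower too (-0.74). USF3 had the reverse sign at stages 9, 12 and 15 (0.28, -0.01 and 0.38) and was lower too at stages 19 and 22 (-0.20 and -0.15). POU2F1 had the reverse sign at all 5 stages, between -0.02 and 0.69. ONECUT2 had the same sign as the share at stages 9, 12 and 15 (-0.0013, 0.08 and -0.63). In *Chrysemys* it had the reverse sign at these stages (-2.35, 0.28 and 1.97). Most of these *Apalone* ratios, and all those of ONECUT2 and USF3, had intervals that included a ratio of 1. Their signs are therefore not separate from counting error.

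The upper quartile relative to the library total, which sets the scaling, had the same sign as USF3 and NR6A1 at each *Chrysemys* stage. POU2F1 differed from it in sign at stage 19. The log2 ratio of the upper quartile, 31 °C over 26 °C, was -0.26, 0.11, 0.11, -0.30 and -0.36 in *Chrysemys*, and between -0.08 and 0.11 in *Apalone*. Scaling by library totals would therefore add these values to each log2 ratio. The part of library make-up in the ratios was not tested.

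**Figure D3:**
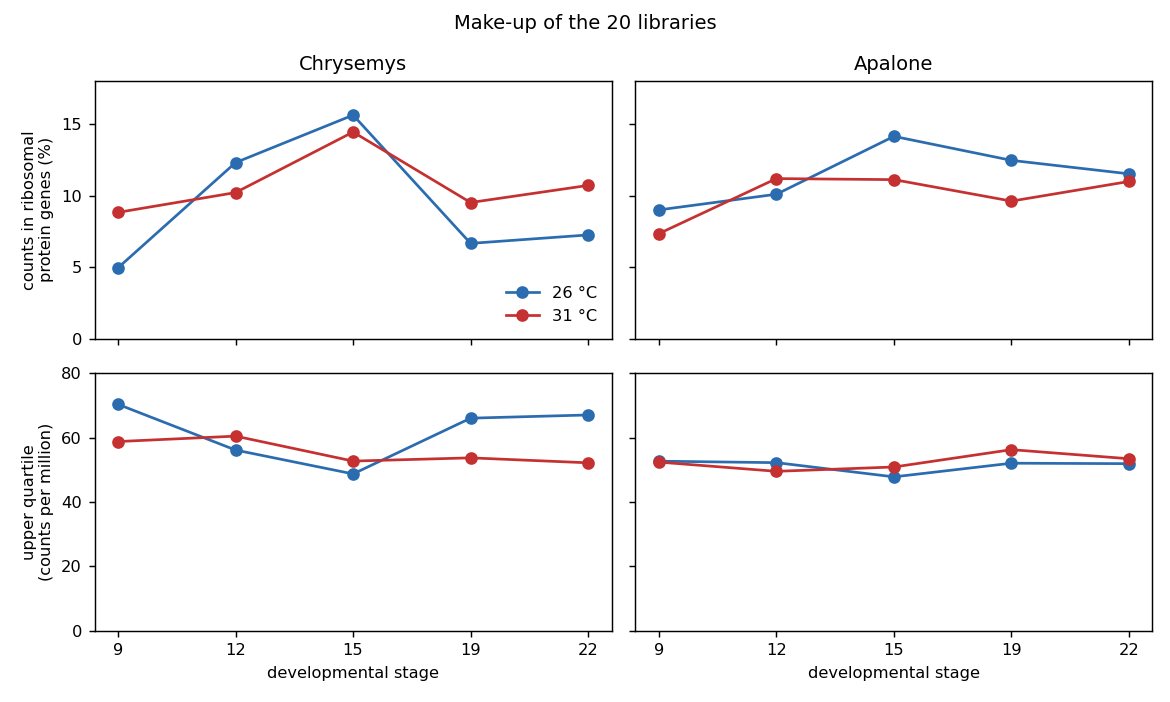
Share of counts in ribosomal protein genes (top, percent) and upper quartile of the genes in CPM (bottom) by stage, for cool (blue line) and warm (red line) eggs of *Chrysemys* (left) and *Apalone* (right). The 26 °C *Chrysemys* line of ribosomal protein genes runs from 4.96% at stage 9 to 15.6% at stage 15 and back to 7.25% at stage 22, against 8.83, 14.4 and 10.7% at 31 °C.

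The levels were next compared by stage. The group name already calls the genes early embryo factors, and the 26 °C trunk of stage 9, which sets the large temperature ratio, also enters the steps from the trunk. These stage tests are therefore not independent of how the genes were chosen. Quasi-likelihood tests in edgeR compared stages within a species with temperature as a term, and adjusted p-values (Benjamini-Hochberg) run over all genes. The 2 libraries of a stage stand in as replicates with 4 residual degrees of freedom, and edgeR moderates the spread of each gene towards that of all genes. The p-values therefore rest on the spread between these libraries, partly shared over genes, and not on replicate pools. That spread includes any change of the temperature difference with stage. Stage and tissue cannot be told apart in the steps from trunk to complex and from complex to gonad. From complex to gonad all 4 nephron markers were called higher in *Chrysemys*, beside 19.2% of all genes. In *Apalone* 2 of 4 were, beside 5.35%. Their part in the changes at that step was not tested. All 4 genes passed the filter on low counts in both species.

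NR6A1 fell from trunk to complex in both species. The log2 change was -3.84 ± 0.66 (SE, adjusted p = 0.0067, edgeR) in *Chrysemys*, where 6.30% of 12827 genes were called lower. It was -4.46 ± 0.38 (adjusted p = 0.00033, edgeR) in *Apalone*, where 8.56% of 10644 were. In each species both trunk libraries were above all 4 complex libraries. Without the 26 °C trunk the *Chrysemys* value was -2.36 with adjusted p = 0.27 (edgeR), a call lost with that library, while in *Apalone* the call held without any one library.

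From complex to gonad NR6A1 gave log2 changes of -0.44 ± 0.60 in *Chrysemys* and -0.28 ± 0.39 in *Apalone* (adjusted p = 0.59 and 0.72, edgeR). From trunk to gonad, a contrast added after the values were seen, it fell by 4.27 ± 0.63 and 4.74 ± 0.38 on the log2 scale (adjusted p = 0.00065 and 6.9e-05, edgeR), a step at which 11.0% and 15.5% of genes were called lower. The *Chrysemys* call was lost without the 26 °C trunk (-2.65, adjusted p = 0.058, edgeR).

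ONECUT2 had negative changes at both steps and was called at the later one, in *Chrysemys* only. The difference between the steps was not tested. From complex to gonad the log2 change was -2.90 ± 0.94 in *Chrysemys* (adjusted p = 0.032, edgeR; 16.8% of genes were called lower). In *Apalone* it was -2.50 ± 0.80 and did not pass (adjusted p = 0.088, edgeR; 3.08% of genes were called lower). The *Chrysemys* call was lost without either trunk library, without the warm complex of stage 15, or without either warm gonad, with values of -2.69 to -1.91 and adjusted p of 0.051 to 0.14 (edgeR). The *Apalone* change passed when either gonad of stage 19 was left out, at -5.64 (26 °C out) and -1.88 (31 °C out).

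From trunk to gonad ONECUT2 fell, with log2 changes of -4.0 ± 0.95 in *Chrysemys* and -3.45 ± 0.86 in *Apalone* (adjusted p = 0.010 and 0.015, edgeR). The call was lost in *Chrysemys* without the 26 °C trunk (-2.79, adjusted p = 0.23, edgeR) and in *Apalone* without either trunk (-4.05 and -2.89, adjusted p = 0.056 and 0.12). Its early step, from trunk to complex, had changes of -1.11 ± 0.94 and -0.95 ± 0.76 that did not pass (adjusted p = 0.46 and 0.42).

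POU2F1 fell from trunk to complex in *Apalone*, by 1.34 ± 0.21 on the log2 scale (adjusted p = 0.0041, edgeR), with or without any one library. It fell there also from stage 12 to stage 15, within the same tissue, by 1.07 ± 0.26 (adjusted p = 0.024, edgeR), where 6.84% of genes were called lower. That second call was lost without the stage 12 or the stage 15 library of 26 °C or the stage 15 library of 31 °C (-1.13 to -0.80, adjusted p of 0.10 to 0.26), and with stage alone in the model (-1.05, adjusted p = 0.067). In *Chrysemys* the change from trunk to complex was -1.45 ± 0.66 and did not pass (adjusted p = 0.17, edgeR).

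USF3 was called at 1 step, in *Apalone*. It fell there from trunk to complex by 0.73 ± 0.21 on the log2 scale (adjusted p = 0.037, edgeR). That call was lost when any one of the 6 trunk and complex libraries was left out (-0.90 to -0.55, adjusted p of 0.052 to 0.24). In *Chrysemys* the change was -1.01 ± 0.64 (adjusted p = 0.31, edgeR). From complex to gonad the log2 changes were 0.94 ± 0.53 in *Chrysemys* and 0.41 ± 0.17 in *Apalone*, neither of which passed (adjusted p = 0.18 and 0.19, edgeR). Without the warm stage 15 library, USF3 passed at both *Chrysemys* steps, with -1.75 from trunk to complex (adjusted p = 0.047) and 1.75 from complex to gonad (adjusted p = 0.014).

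Over all 5 stages together, NR6A1 differed in both species (adjusted p = 0.0021 in *Chrysemys* and 0.00018 in *Apalone*, edgeR), as did 29.1% and 30.4% of genes. The *Chrysemys* call was lost without the 26 °C trunk (adjusted p = 0.099). ONECUT2 passed in *Chrysemys* (0.045) and not in *Apalone* (0.073). Its *Chrysemys* call was lost under upper quartile scaling (0.058), library totals (0.062) and stage alone (0.059). It was also lost without either trunk (0.20 for the 26 °C and 0.053 for the 31 °C one), without either gonad of stage 19 (0.060 and 0.10) or without the warm complex of stage 12 (0.051). In *Apalone* it passed with each read pair counted once (0.046) and without either gonad of stage 19 (0.0026 and 0.0065). POU2F1 passed in *Apalone* (0.0047) and not in *Chrysemys* (0.40). USF3 passed in neither (0.57 and 0.059), but did in *Apalone* under library totals (0.048). The difference between species in these stage changes was not tested. From stage 19 to 22 no gene of the 4 passed, nor did any gene in either species in edgeR, where 995 and 1103 genes had an unadjusted p under 0.05. DESeq2 called 92 and 163 genes for that step.

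**Figure D4:**
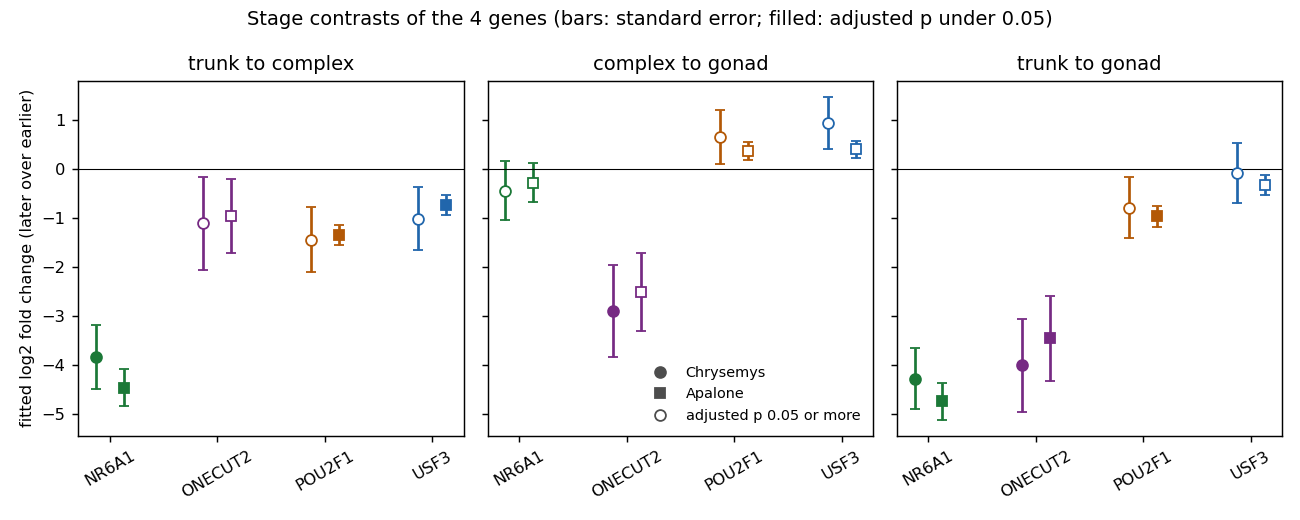
Fitted log2 fold change, later over earlier tissue, of each gene in *Chrysemys* (circles) and *Apalone* (squares) for 3 stage steps; bars are standard errors and filled symbols have an adjusted p under 0.05 in edgeR. NR6A1 lies at -3.84 and -4.46 in the first panel, and ONECUT2 at -2.90 and -2.50 in the second, where only the *Chrysemys* symbol is filled.

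Genes known from the early embryo were examined beside the 4. A list of 16 such genes, led by LIN28A, which blocks the maturation of let-7 microRNAs, had 8 with a symbol in the tables. From trunk to complex 7 of the 8 fell in *Chrysemys* and 7 of 8 in *Apalone* (median log2 change -2.16 and -1.62, against 0.01 and -0.01 over all genes), beside 6.30% and 8.56% of all genes called lower. TRIM71, an RNA-binding repressor and let-7 target, fell by 3.56 ± 0.49 and 3.01 ± 0.16 on the log2 scale (adjusted p = 0.0031 and 3.0e-05, edgeR). Most *Chrysemys* calls over all genes at this step were lost without the 26 °C trunk, so the list calls there rest largely on that library. Single list genes were not followed without it.

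At *Chrysemys* stage 9 the same list had a median log2 ratio of 31 °C over 26 °C of -0.67, with 5 of 8 genes at least 1.5-fold lower, beside 14.1% of all genes, and none higher. LIN28A had 788 scaled counts in the cool trunk and 284 in the warm one, and IGF2BP1, which binds messenger RNA, had 1502 and 588. NR6A1 (log2 ratio -2.60) lay below both, at -1.47 and -1.35. IGF2BP3 and IGF2BP2, the list genes with the highest mean levels, differed little between the trunks (log2 ratios of -0.02 and -0.13). At stage 12 the median was 0.51 and at stage 15 it was 0.31, while in *Apalone* it stayed between -0.20 and 0.21. No gene of the list was called for temperature over all stages in edgeR (0 of 8 in *Chrysemys* and in *Apalone*, of which 0 and 1 had an unadjusted p under 0.05). Over all genes 2 of 12827 and 3 of 10644 were called, and 809 and 1651 had an unadjusted p under 0.05 in edgeR. With so few calls nothing is read from the 0. Of 18 listed pluripotency and trunk progenitor genes, SOX3 and WNT3A were counted. At *Chrysemys* stages 9 and 15 the log2 ratio was 0.28 and -1.31 for SOX3, and -2.06 and 0.65 for WNT3A (mean scaled count 8.12). The median of 8 posterior Hox genes was 0.39 and 0.34 at these stages.

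Of 8 close relatives looked for, ONECUT1 and NR5A1 had a symbol in the tables. ONECUT1, the paralog that shares liver and pancreas roles with ONECUT2 in the mouse, had log2 changes from complex to gonad of -2.49 ± 0.72 in *Chrysemys* and -5.02 ± 1.15 in *Apalone* (adjusted p = 0.019 and 0.033, edgeR). Reads that fit both paralogs may have been split between them. In the *Chrysemys* complex of stage 15 ONECUT1 had 3.01 scaled counts at 26 °C and 18.5 at 31 °C, beside 6.02 and 26.4 for ONECUT2. At stage 9 it had 41.9 and 17.6, so both paralogs were lower in the warm trunk. Both had higher values in the warm complex of stage 15, on few reads. The cool value of ONECUT1 there was under the floor of 6 counts, and the interval of ONECUT2 included a ratio of 1 (0.936 to 41.2).

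Liver and nerve markers, from tissues where ONECUT2 acts, were summed beside it. Liver markers (7 of 12 listed) summed to 59995 scaled counts in the 26 °C *Chrysemys* trunk and 36038 in the warm one, and nerve markers (8 of 14) to 2720 and 5459. At stage 15 the liver sums were 12263 and 5513 and the nerve sums 22409 and 17895, each sum lower where ONECUT2 was higher. The nerve sum did not stand for its list there, with a median log2 ratio of 0.15, 1 of 8 markers at least 1.5-fold lower and 1 higher. For the liver markers the median was -1.85, with 6 of 7 lower and 1 higher. Over all genes 12.1% were at least 1.5-fold lower and 21.9% higher at stage 15. At stage 9 the same threshold put 4 of 7 liver markers lower and 0 higher. For the nerve markers it put 1 of 8 lower and 7 higher there, beside 14.1% of all genes lower and 17.2% higher. No marker of either list was at 0 in these 4 libraries, and their part in the ONECUT2 levels was not tested.

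NR5A1, the steroidogenic receptor also known as SF1, is grouped with NR6A1 among orphan nuclear receptors. In *Chrysemys* its log2 ratio of 31 °C over 26 °C was 0.41, -1.44 and -3.91 at stages 12, 19 and 22, of the same sign as NR6A1. At stages 9 and 15 it was 1.15 and -1.25, of the opposite sign. From trunk to complex, where NR6A1 fell, NR5A1 was called higher in *Apalone* only. From complex to gonad, where NR6A1 was not called, NR5A1 rose by 3.49 ± 0.66 and 2.13 ± 0.43 on the log2 scale (adjusted p = 0.0024 and 0.016, edgeR). Of 12 such receptors measured, 8 rose and 1 fell at that step in *Chrysemys*, and 1 rose in *Apalone*. Over all genes 19.2% were called higher and 16.8% lower there in *Chrysemys*, and 5.35% higher in *Apalone*. From trunk to complex 1 of 12 fell in each species (NR2F6, with 1 rising in *Chrysemys* and 7 in *Apalone*), beside 5.38% and 8.62% of all genes called higher.

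Partners and relatives of POU2F1 and USF3 were examined in 3 lists, beside the shares of all genes given above. Among 11 measured genes of the octamer and small nuclear RNA promoter machinery, 1 fell from trunk to complex in each species (SNAPC4 in *Chrysemys*, BRF1 in *Apalone*), and BRF2 rose in *Apalone*. From complex to gonad SNAPC4 rose and TBP and SNAPC3 fell in *Chrysemys*, and 0 were called in *Apalone* by edgeR, where 2 had an unadjusted p under 0.05.

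Of 5 other POU genes, POU6F1 rose and 2 fell (POU4F2 and POU3F2) from complex to gonad in *Chrysemys*, and POU4F1 and POU3F2 fell in *Apalone*. POU3F2, a neural factor, had log2 changes of -3.53 ± 0.35 and -2.76 ± 0.23 at that step (adjusted p = 5.6e-05 and 0.00034, edgeR). From trunk to complex none was called in *Chrysemys*, while POU3F4 rose and POU3F2 fell in *Apalone*.

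Of 10 other E-box genes, 2 rose (MLXIPL and MLXIP) and TFAP4 fell from complex to gonad in *Chrysemys*, and MYCL and SREBF2 fell in *Apalone*. From trunk to complex 1 fell and 1 rose in each species. SREBF2, which controls cholesterol synthesis, fell there, with log2 changes of -1.0 ± 0.24 and -0.75 ± 0.14 (adjusted p = 0.024 and 0.0085). MXD4, an antagonist of MYC, rose by 1.71 ± 0.32 and 1.69 ± 0.21 (adjusted p = 0.0095 and 0.0015).

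Genes with the most similar course were ranked by Pearson correlation of log2 levels over the 20 libraries, centred within species, among 4869 named genes with a mean scaled count of 50 or more in both. The libraries share stage, tissue and depth, so these values are descriptions. NR6A1 was nearest to PRTG (r = 0.954), an immunoglobulin-family receptor of the early embryo, TRIM71 (0.947) and the amino acid transporter SLC7A5 (0.943). PRTG had 4033 scaled counts in the cool *Chrysemys* trunk and 1263 in the warm one, and 2934 and 3459 in the *Apalone* trunks. It was lower in the warm *Chrysemys* trunk and slightly higher in the warm *Apalone* trunk, as NR6A1 was.

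ONECUT2 had looser neighbours: SQLE (r = 0.862), an enzyme of cholesterol synthesis, CA5A (0.858), a mitochondrial carbonic anhydrase, and the helicase DHX29 (0.846). Their log2 ratios of 31 °C over 26 °C at *Chrysemys* stage 9 were 0.37, -0.41 and -0.30, against -2.35 for ONECUT2. They therefore shared its decline over stages more than its temperature ratios.

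POU2F1 was nearest to the kinase GSK3B (r = 0.949), the Mediator subunit MED1 (0.940) and MDN1 (0.931), which acts in ribosome assembly. USF3 was nearest to the phosphatase PTPN14 (0.921), the ubiquitin ligase BIRC6 (0.911) and the scaffold protein TANC2 (0.902). All 6 were lower in the warm *Chrysemys* library at stages 9 and 22 and higher at stage 15, as POU2F1 and USF3 were. PTPN14 came closest in size, with log2 ratios of -1.65, 2.04 and -1.09 at stages 9, 15 and 22, beside -2.14, 1.72 and -1.77 for USF3.

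Among the 4 themselves POU2F1 and USF3 were most alike (r = 0.864 over the 20 libraries), followed by NR6A1 with POU2F1 (0.753) and with ONECUT2 (0.620). ONECUT2 and USF3 had the lowest value (0.149). Of the 4869 genes, 0.657% were at least as like POU2F1 as USF3 was, and 47.0% were at least as like ONECUT2 as USF3 was. The 4 were grouped by their temperature difference in these same libraries, so nothing is read from these shares.

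**Figure D5:**
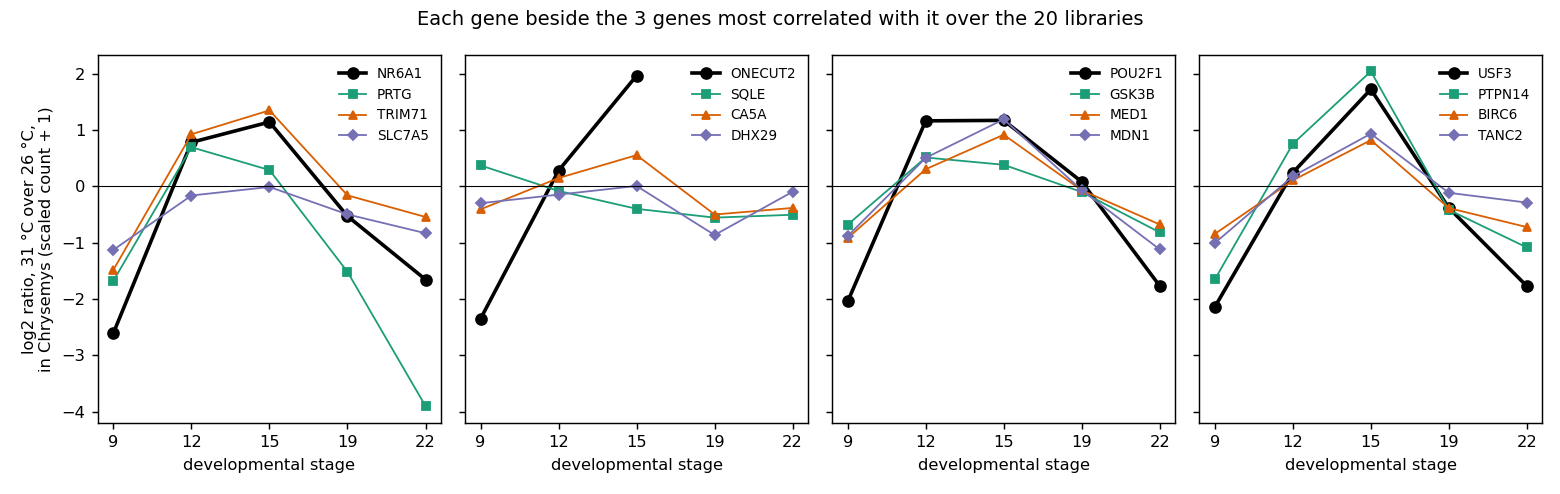
Log2 ratio of 31 °C over 26 °C (scaled count plus 1) by stage in *Chrysemys* for each of the 4 genes (black) and the 3 genes most correlated with it over the 20 libraries (colours). The neighbours of POU2F1 and USF3 dip at stages 9 and 22 and peak at stage 12 or 15, whereas SQLE, CA5A and DHX29 stay between -0.86 and 0.55 beside ONECUT2, which reaches 1.97 at stage 15.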

How the data were processed

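Per the study's methods, the authors assembled transcripts of each turtle de novo with Trinity, placed them on annotated *Chrysemys* genes with GMAP, aligned the reads to those genes with GSNAP and counted with HTSeq. A genome-guided assembly was tried and dropped, and the paper rests all its later analyses on the de novo assemblies. For the deposited file itself the route is not named. The submitters' notes also list Trimmomatic 0.27. The deposited values are raw read counts with no scaling. Every count is even, so each read pair appears to add 2. Assigning *Apalone* reads to *Chrysemys* genes may lower counts of diverged genes, so levels were compared within a species. Counting ignored strand, so reads from a gene and an antisense partner cannot be told apart.

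Entries were paired with symbols through a reference table of another assembly, used for names only, and the descriptions in the study's tables: 7948 *Chrysemys* entries (of 13940) and 7656 *Apalone* entries (of 12678) received one. Scaling set the 75th percentile of counts (the upper quartile) equal within a species, as in the study. Its housekeeping step and its test of 1 library against 1 were not used. Stage contrasts and a temperature effect with stage as a block used edgeR 4.0.16 (quasi-likelihood, TMM, its filter on low counts, adjusted p under 0.05) in R 4.3.3. DESeq2 1.42.0 served as an alternative, as did other scalings, no filter, single counting of pairs, no temperature term and leaving out each library. Ratios used Python 3.11.15 with scipy 1.17.1, a pseudocount of 1 and a floor of 3 read pairs, and 1.5-fold counted as called.

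The members and gene lists were chosen with earlier results of these data known. The rule for naming took the 4 genes, the 3 most correlated genes of each, close relatives, and from each list any gene called for temperature or among the 4 with the highest mean level. List genes outside that rule were named after their values were seen. The ratio intervals and the edgeR step from trunk to complex were also run on simulated counts. The simulated edgeR counts had no temperature effect. They do not show how that test fares where the temperature difference changes with stage.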

Additional observations from a re-analysis of the deposited data

Results flagged for a closer look

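For 4 values the *Chrysemys* and *Apalone* libraries differed by at least 1.5-fold between temperatures in opposite directions, a comparison chosen after the values were seen. NR6A1 had a log2 ratio of 31 °C over 26 °C of 1.14 at stage 15 in *Chrysemys* and -0.74 in *Apalone*, on 8 read pairs or fewer per library. At stage 22 NR6A1 stood at -1.65 in *Chrysemys*, on 14 read pairs at 26 °C and 5 at 31 °C. In *Apalone* it stood at 1.42, on 3 and 11 read pairs, with an interval that included a ratio of 1. ONECUT2 had 1.97 in *Chrysemys* and -0.63 in *Apalone* at stage 15, on 10 read pairs or fewer. POU2F1 had -1.77 in *Chrysemys* and 0.67 in *Apalone* at stage 22, and both its intervals excluded a ratio of 1. With 1 library per temperature, none of these differences between species was tested.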

How the results depend on the processing

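No value changed direction among the called results under any alternative that was run. DESeq2 called 2389 genes from trunk to complex in *Chrysemys* against 1498 in edgeR. The temperature effect called 2 genes in *Chrysemys*, none with DESeq2 size factors, upper quartile scaling or library totals, and 47 with the DESeq2 test. In *Apalone* it called 3 genes, against 8 with no filter, 5 with each pair counted once and 250 with the DESeq2 test. ONECUT2 lost its call from complex to gonad in *Chrysemys* under library totals (-2.80) and with stage alone in the model (-2.45), and gained one in *Apalone* under the DESeq2 test (-2.59). The cause was not tested.

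Leaving out each library in turn gave 2178 to 3941 genes called for any stage in *Chrysemys*, 18 to 1924 from trunk to complex (18 without the 26 °C trunk and 399 without the 26 °C complex of stage 12), 2647 to 4575 from complex to gonad and 0 to 1 for temperature. In *Apalone* the ranges were 2015 to 3158, 399 to 1819, 282 to 837 and 0 to 5. Single genes ranged from -4.92 to -2.36 (NR6A1) and -1.91 to 0.16 (USF3) from trunk to complex in *Chrysemys*, and from -0.90 to -0.55 (USF3) in *Apalone*. From complex to gonad they ranged from -5.36 to -1.91 (ONECUT2) and 0.37 to 1.75 (USF3) in *Chrysemys*, and from -5.64 to -1.88 (ONECUT2) in *Apalone*. A stage left with 1 library is assumed to vary like the others.

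Mean log2 ratios moved by less than their SD under every scaling and pseudocount. By Spearman correlation 1 of the 3 genes most like NR6A1 and 1 of those most like ONECUT2 remained among the first 3, and 2 each for POU2F1 and USF3. A correction for transcript length was not run, since 46.4% of *Chrysemys* entries matched the reference table, under the minimum of 80%. Each group held 1 library, so replicate numbers carried no pairing, and the temperature effect was fitted with stage as a block. Depth limited ONECUT2 most, with 0 to 10 read pairs in each gonad library.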

Other observations

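Across all genes the temperature effect over the 5 stages called SERPINH1 in both species, a collagen chaperone of the heat shock family. It was higher at 31 °C by 1.40 ± 0.18 on the log2 scale in *Chrysemys* and by 1.39 ± 0.13 in *Apalone* (adjusted p = 0.042 and 0.016, edgeR). The other calls were the unnamed entry XM_005313576, higher in *Chrysemys* (5.89 ± 0.74), and GCA and LOC101932392, lower in *Apalone* (-1.12 ± 0.13 and -5.90 ± 0.59). These genes were named after their values were seen, and the *Chrysemys* calls were absent under the 3 other scalings run. They were also absent when both libraries of stage 15, of stage 19 or of stage 22 were left out. The *Apalone* calls, with SERPINH1 among them, were absent when both libraries of stage 9, of stage 12 or of stage 15 were left out.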
